A study of Mus musculus with 4 samples.

Results

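LSD1 peaks present only at day 5 are the day 5 ChIP-seq peaks on chromosomes 1 to 19 that overlap no day 2 LSD1 peak by even 1 bp. There were 2390 of them among 17315 day 5 peaks on these chromosomes, or 13.8% (Wilson 95% interval 13.3 to 14.3), and among 61485 peaks in the series as a whole. The other 14925 day 5 peaks overlapped a day 2 peak and are called shared below. These peaks were chosen by their positions in both lists, so all values that follow describe them and none is a test of the choice.

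LSD1 occupancy was mapped in C2C12, an established mouse myoblast line, at day 5 (120 h, differentiated) and at day 2 (48 h, differentiating) after the switch from 10% fetal bovine serum to 2% horse serum, both in 25 mM glucose. Both LSD1 libraries were made with the same polyclonal antibody. The series holds 4 libraries, 1 LSD1 precipitate and 1 input at each day, and the peak lists of the LSD1 libraries were analysed. There was 1 library per group, so a difference between the days has no replicate check and is given without a test. All intervals are at 95%, allow for counting error alone and take neighbouring peaks as independent, which is not the case. Positions are given in mm9 coordinates. The read depth behind the lists is unknown, so a peak missing at day 2 means that no peak was called there. The day 2 list was the longer, with 43459 peaks on chromosomes 1 to 19.

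LSD1, the product of Kdm1a, is a demethylase of histone H3 that works with the scaffold CoREST and histone deacetylases in complexes that keep genes silent. It does not pick its sites by DNA sequence on its own and is brought to promoters and enhancers by transcription factors and by the nucleosome itself. In C2C12 cells, low serum starts the exit from the cell cycle, the activation of muscle genes and fusion into myotubes.

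Peaks present only at day 5 were weak and narrow. The peak score was given by the authors' peak caller and is used here within each list. It had a median of 57.1 (interval of the median 56.6 to 57.7) against 77.0 (76.5 to 77.5) for shared day 5 peaks. Its lowest value in the list was 50, and 60.5% of the peaks present only at day 5 scored below 60 (58.6 to 62.5), against 25.3% of shared day 5 peaks (24.6 to 26.0). At least 100 was reached by 58 of the 2390 (2.43%, 1.88 to 3.12), against 30.5% of shared day 5 peaks. Of the 2390 peaks, 392 (16.4%) lay at or above the median score of the day 5 list. The median width was 238 bp (235 to 242) against 351 bp (348 to 353), and 36 peaks present only at day 5 (1.51%) were wider than 500 bp, against 20.1% of shared ones. Together they covered 0.623 Mb of the 6.50 Mb under day 5 peaks, 9.59% of the length for 13.8% of the number.

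The share of day 5 peaks without a day 2 peak was lower in each higher decile of the score, with neighbouring deciles not always apart. In the lowest decile, with scores from 50 to 52.5, 546 of 1735 peaks were present only at day 5 (31.5%, 29.3 to 33.7). The second decile held 30.3% (28.2 to 32.5), within the interval of the first. The fifth decile held 12.4% (10.9 to 14.0), and the ninth 1.33% (0.887 to 1.99). In the highest decile, from a score of 156 upwards, 2 of 1732 peaks were present only at day 5 (0.115%, 0.0317 to 0.420). The share was likewise lower in each higher decile of the width. Peaks of up to 214 bp were present only at day 5 in 38.7% of cases (36.5 to 41.0), and those of at least 592 bp in 0.871% (0.528 to 1.43).

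**Figure D1:**
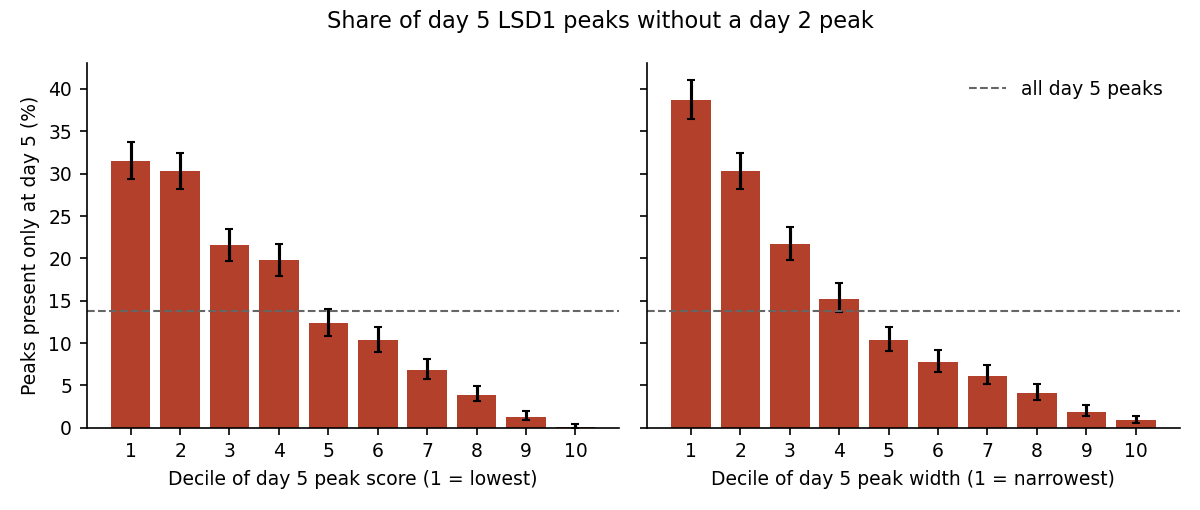
Percentage of day 5 LSD1 peaks with no overlapping day 2 peak (vertical axis) by decile of day 5 peak score (left) and of day 5 peak width (right); bars are shares, error bars are Wilson 95% intervals, and the dashed line marks 13.8% over all day 5 peaks. The share runs from 31.5% to 0.115% over the score deciles and from 38.7% to 0.871% over the width deciles.

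Score and width both went with absence at day 2, each at a given level of the other, with neighbouring quintiles not always apart. Width also enters the rule itself, since a wider peak more readily reaches a day 2 peak by 1 bp. That part was not tested. Within the lowest quintile of the score, 38.3% of the narrowest quintile of peaks were present only at day 5 (36.1 to 40.5), against 17.0% of the middle quintile by width (13.8 to 20.8). Among the narrowest quintile of peaks, the share was 23.9% in the middle quintile of the score (20.3 to 28.0), below the 38.3% at the lowest scores. Peaks present only at day 5 had the narrower median in each quintile of the score. It was 222 bp against 243 bp for shared peaks in the lowest quintile and 282 bp against 327 bp in the middle one. In the highest quintile, which held 25 peaks present only at day 5, it was 424 bp (355 to 485) against 550 bp (542 to 558).

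Most peaks present only at day 5 lay away from the edge of any day 2 peak. The gap to the nearest day 2 peak, measured from edge to edge, had a median of 5.40 kb (4.91 to 5.97) and quartiles of 1.28 and 17.8 kb. Up to 1 kb separated 514 of them from a day 2 peak (21.5%, 19.9 to 23.2). Between 1 and 10 kb separated 972 (40.7%, 38.7 to 42.7), and more than 10 kb separated 904 (37.8%, 35.9 to 39.8). Measured against the whole day 5 list, 10.8% of peaks were more than 1 kb from any day 2 peak and 5.22% more than 10 kb.

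Shared day 5 peaks gave a measure of how far apart day 2 peaks usually are around a day 5 peak. Their gap to the nearest day 2 peak other than those they overlap had a median of 4.98 kb (4.80 to 5.18), and its interval met that of the peaks present only at day 5. The classes differed somewhat: 1 to 10 kb held 46.7% of shared peaks (45.9 to 47.5), above the 40.7%, and over 10 kb held 34.0% (33.2 to 34.7), below the 37.8%. The extremes differed more. Up to 100 bp from a day 2 peak lay 113 peaks present only at day 5 (4.73%, 3.95 to 5.65) against 1.47% of shared peaks (1.29 to 1.67). Of the shared peaks, 88.8% lay wholly inside a day 2 peak, which by construction keeps them away from the edges of others. At the other end, 100 peaks present only at day 5 (4.18%, 3.45 to 5.06) were more than 100 kb from a day 2 peak, against 1.93% of shared peaks (1.72 to 2.16).

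**Figure D2:**
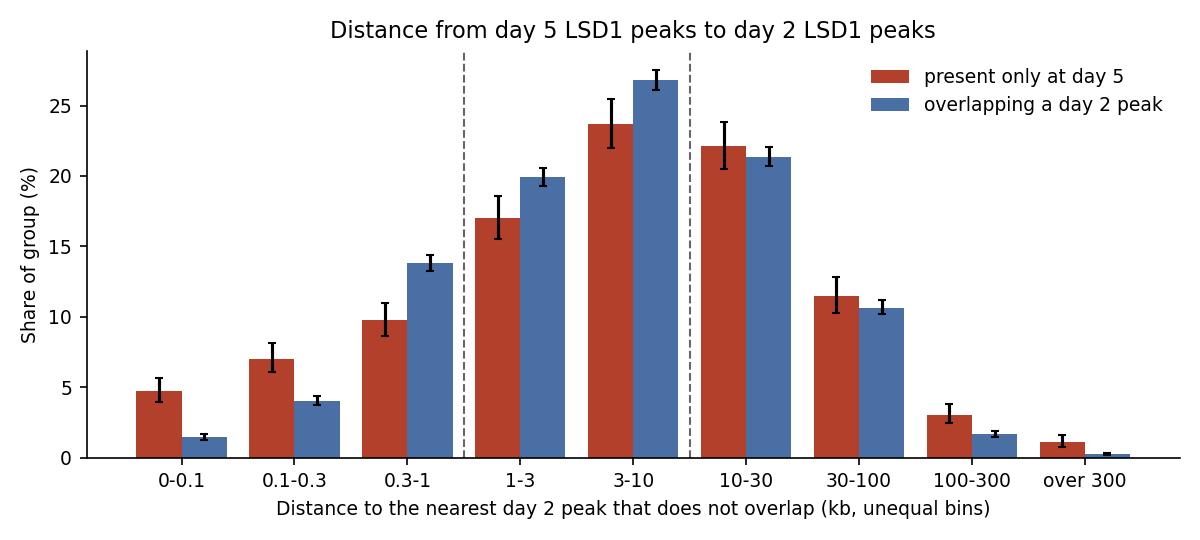
Share of each group (vertical axis, %) by the gap in kb to the nearest day 2 LSD1 peak that does not overlap, in unequal bins on the horizontal axis, for peaks present only at day 5 (red) and shared day 5 peaks (blue); error bars are Wilson 95% intervals and dashed lines mark 1 and 10 kb. The red bars are higher up to 0.3 kb and above 10 kb, and the blue bars are higher from 0.3 to 10 kb. From 10 to 100 kb the intervals of red and blue overlap.

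The median score was 56.6 (55.9 to 58.0) for peaks up to 1 kb from a day 2 peak, 57.4 (56.7 to 58.2) from 1 to 10 kb and 57.1 (56.2 to 58.0) beyond 10 kb. The median width was 242 bp (235 to 248), 244 bp (240 to 250) and 231.5 bp (228 to 236) in the same order. All score intervals overlapped, as did the width intervals of the first class with both others. Those from 1 to 10 kb and beyond 10 kb were apart, the peaks beyond 10 kb being the narrower by median. The 27 peaks more than 300 kb from a day 2 peak had a median width of 195 bp and a median score of 57.4.

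**Figure D3:**
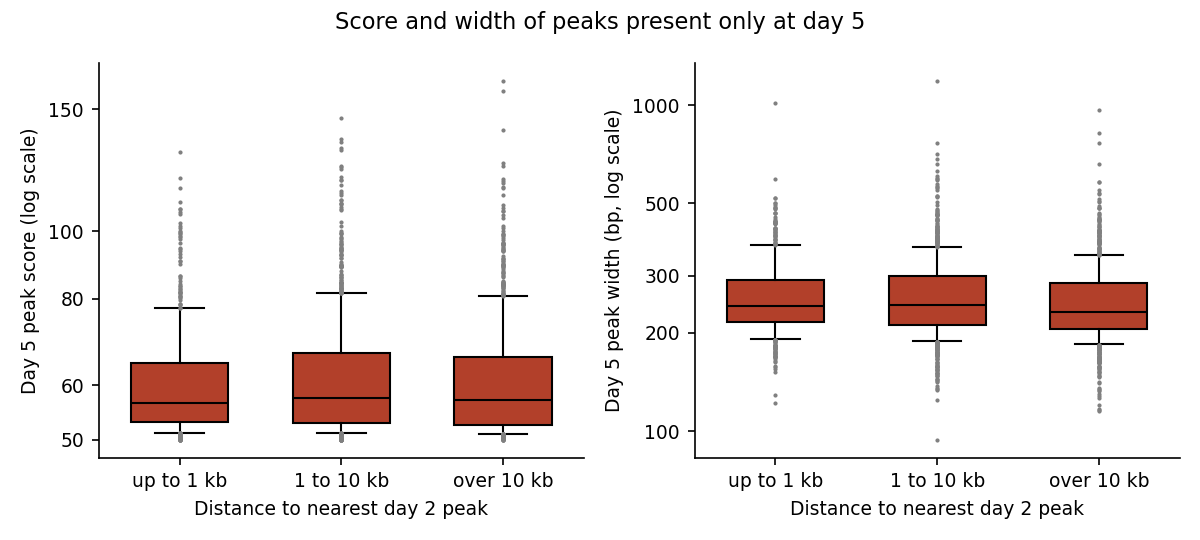
Day 5 peak score (left) and width in bp (right), both on log axes, of peaks present only at day 5 in 3 classes of distance to the nearest day 2 peak; boxes span the quartiles with the median as a line, whiskers reach the 10th and 90th percentiles, and dots are peaks beyond them. Medians lie between 56.6 and 57.4 for the score and between 231.5 and 244 bp for the width.

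The day 2 peak next to a peak present only at day 5 was much like any day 2 peak. For 1627 of the 2390 peaks (68.1%, 66.2 to 69.9), the nearest day 2 peak had itself no day 5 peak. Over all day 2 peaks this was 69.4%, inside that interval. Its score had a median of 108 (103 to 113) and its width one of 663 bp (650 to 686), against 105 and 665 bp for all day 2 peaks. In the 3 distance classes, from near to far, the share whose nearest day 2 peak had no day 5 peak was 66.1% (62.0 to 70.1), 68.4% (65.4 to 71.3) and 68.8% (65.7 to 71.7). Peaks present only at day 5 followed their nearest day 2 peak along the chromosome in 51.6% of cases (49.6 to 53.6) and preceded it in the rest.

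Within 1 kb of a day 2 peak there were 2 kinds of arrangement. At 340 peaks present only at day 5 (14.2% of all 2390), the day 2 neighbour had no day 5 peak of its own, so that each list held a peak where the other held none, side by side. These 340 faced 338 different day 2 peaks, across a median gap of 260 bp (237 to 295), with midpoints a median of 775 bp apart (717.5 to 857). Their day 2 neighbours had a median score of 89.9 and a median width of 601 bp. Over all day 2 peaks without a day 5 peak these medians were 84.75 and 594 bp. The neighbours were a median of 2.5 times as wide as the day 5 peak. At the remaining 174 (7.28%), the day 2 neighbour was also occupied at day 5, so the peak stood as an extra one beside a shared site. These neighbours had a median score of 211 and a median width of 996 bp, close to the 214 and 919 bp of all day 2 peaks with a day 5 peak. The day 5 peaks themselves had about the same median score in both arrangements, 56.9 (55.9 to 58.6) beside an unshared and 56.1 (54.5 to 58.5) beside a shared day 2 peak. A day 2 peak within 1 kb on both sides was found at 46 peaks present only at day 5.

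The 5 peaks nearest to the limit between the groups on each side were of much the same size. Those without overlap were 190 to 318 bp wide and the shared ones 167 to 298 bp. The nearest without overlap abutted its day 2 peak with no base between them, on chromosome 7 at 29062912 to 29063103 (192 bp, score 55.5), next to the day 2 peak at 29062251 to 29062911. It was followed by peaks on chromosome 5 at 124120892 to 124121191 (gap 1 bp, score 55.9) and on chromosome 17 at 29197632 to 29197860 (gap 2 bp, score 52.6). Both the peak on chromosome 7 at 75097509 to 75097698 (score 55.8) and the one on chromosome 12 at 17776076 to 17776393 (score 54.2) had a gap of 4 bp. On the other side of the limit, the day 5 peaks on chromosome 8 at 73017184 to 73017396 (score 51.9) and one on chromosome 18 (score 51.8) overlapped a day 2 peak by 1 bp. Those on chromosome 5 at 30052439 to 30052605 (score 51.8), chromosome 14 at 70065889 to 70066154 (score 50.3) and chromosome 15 at 88684221 to 88684518 (score 65.4) overlapped by 3 bp. Such edge cases were few among shared peaks, where 192 of 14925 (1.29%) overlapped over less than 50% of their width. They weighed more against the smaller group. Counting them as present only at day 5 gave 2582 peaks, with 27.3% within 1 kb of a day 2 peak instead of 21.5%.

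The strongest peaks present only at day 5 were found at all 3 ranges of distance. The highest score, 165, belonged to the peak on chromosome 15 at 38360967 to 38361730. It ranked 1512 of the 17315 day 5 peaks, was 764 bp wide and lay 18.8 kb from a day 2 peak of score 193 that was shared. Within 50 kb of it were 10 day 2 peaks. The second, on chromosome 17 at 72952367 to 72952851 (score 159, 485 bp), stood alone: the nearest day 2 peak was 154 kb and the next day 5 peak 223 kb away. The third, on chromosome 12 at 112709373 to 112709897 (score 146, 525 bp), lay 1342 bp from a day 2 peak of score 50.9, with 13 day 2 peaks within 50 kb.

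Among the next 7 by score, the peaks on chromosome 2 at 51844970 to 51845419 (score 140), chromosome 7 at 50817575 to 50817998 (score 136) and chromosome 16 at 94784553 to 94784835 (score 134) each had a shared day 2 peak as nearest neighbour, at 16.1, 6.98 and 5.71 kb. The peaks on chromosome 3 at 58589578 to 58590053 (score 132) and chromosome 11 at 90089843 to 90090276 (score 131) lay 2829 and 3172 bp from day 2 peaks with no day 5 peak, and the next day 5 peak was 297 and 124 kb away. On chromosome 5 at 147759938 to 147760164, a peak of score 130 and 227 bp lay 61 bp from a day 2 peak at 147760226 to 147760695 of score 95.5 that had no day 5 peak. It was the highest-scoring of the 514 peaks up to 1 kb from a day 2 peak. The tenth, on chromosome 2 at 180190795 to 180191285 (score 126), was 55.7 kb from the nearest day 2 peak. All places above 1512 in the day 5 list were held by shared peaks.

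Among the 10 widest peaks present only at day 5, scores ran from 50.1 to 165. The widest, on chromosome 18, spanned 1186 bp with a score of 51.4. The next, on chromosome 8 at 82130105 to 82131120, spanned 1016 bp with a score of 82.8 and lay 40 bp from a narrower day 2 peak of 596 bp. It was 1 of 8 peaks up to 1 kb from a day 2 peak that were not narrower than that neighbour, since 506 of the 514 (98.4%) were. Day 2 peaks were the wider in general, with a median of 665 bp, against 238 bp for all peaks present only at day 5. Peaks of 969 bp on chromosome 9 at 2999991 to 3000959 and of 824 bp on chromosome 2 at 98502343 to 98503166 had scores of 57.4 and 50.1 and no day 2 peak within 402 kb and 1.19 Mb. The other 6 of the 10 widest measured 659 to 764 bp, with scores from 70.0 to 165. They lay on chromosomes 8 (at 94074915 to 94075678 and 93855504 to 93856163), 10 (83820342 to 83821000), 15 (the top-scoring peak), 18 and 19 (4172043 to 4172748).

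The peaks farthest from day 2 occupancy were mostly small. The farthest, on chromosome 14 at 95705168 to 95705362, was 195 bp wide with a score of 51.9, and the nearest day 2 peak was 3.39 Mb away. It was followed by peaks on chromosome 6 at 103300380 to 103300584 (1.82 Mb, score 53.2), chromosome 19 at 51654681 to 51654855 (1.43 Mb, score 54.6), the chromosome 2 peak at 98502343 (1.19 Mb) and chromosome 8 at 22149567 to 22149728 (1.02 Mb, score 54.4). These 5 were the ones more than 1 Mb from a day 2 peak, 0.209% of the peaks present only at day 5 (0.0894 to 0.489), against 3 of 14925 shared peaks (0.0201%, 0.00684 to 0.0591). The next 5 in distance lay on chromosome 2 at 176583575, chromosome 12 at 65269498, chromosome 4 at 17780528 and 17780318, and chromosome 6 at 56047925. They were 519 to 991 kb from a day 2 peak, with scores from 50.7 to 63.4. With the exception of the chromosome 2 peak of 824 bp, these 10 peaks were 162 to 217 bp wide. Unique placing of reads was not analysed for these positions.

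From 1 peak present only at day 5 to the next such peak, the median distance was 175 kb (160 to 195), and 191 of them (7.99%, 6.97 to 9.15) had another within 10 kb. Within 1 kb of each other there were 23 pairs, with a median gap of 264 bp, and 6 pairs were at most 100 bp apart. The smallest gap was 4 bp, on chromosome 11 between 51759049 to 51759242 and 51759247 to 51759436. Of the 23 pairs, 7 were more than 10 kb from a day 2 peak. Such a pair stood on chromosome 4, where 17780318 to 17780517 (score 63.4) and 17780528 to 17780744 (score 60.3) were 10 bp apart and 687 kb from any day 2 peak. Another stood on chromosome 6, where 100996228 to 100996530 (score 67.1) and 100996839 to 100997195 (score 107) were 163 kb from one. Whether peaks a few bp apart are separate sites was not tested.

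Relative to all day 5 peaks, those present only at day 5 seemed more solitary, and this depended on how the neighbour was counted. The next day 5 peak of any kind was a median of 18.8 kb away (17.2 to 21.0), against 9.11 kb (8.70 to 9.62) for shared peaks. Within 1 kb lay another day 5 peak for 206 of the 2390 (8.62%, 7.56 to 9.81), against 26.2% of shared peaks (25.5 to 27.0). When day 5 peaks of the same day 2 peak were not counted as neighbours, a measure chosen after the values were seen, shared peaks had a median of 16.8 kb (16.3 to 17.3) and 6.49% of them had a neighbour within 1 kb (6.11 to 6.90). The intervals of the medians then overlapped slightly. This measure takes the ground nearest to a shared peak out of the count, and takes none out for peaks present only at day 5. The latter overlap no day 2 peak by the way they were chosen. Neither the shares within 1 kb nor the medians are therefore comparable between the groups by this measure. By quintile of the score and the same measure, the median of peaks present only at day 5 was the higher in all 5. It was 18.6 kb against 17.7 kb in the lowest, 24.6 kb against 16.5 kb in the fourth and 22.8 kb against 16.3 kb in the highest. The intervals overlapped in each. With any other day 5 peak as neighbour, shared peaks had medians of 9.43, 9.52 and 8.01 kb in the same quintiles. Those intervals lay below the ones of peaks present only at day 5 in all 5.

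**Figure D4:**
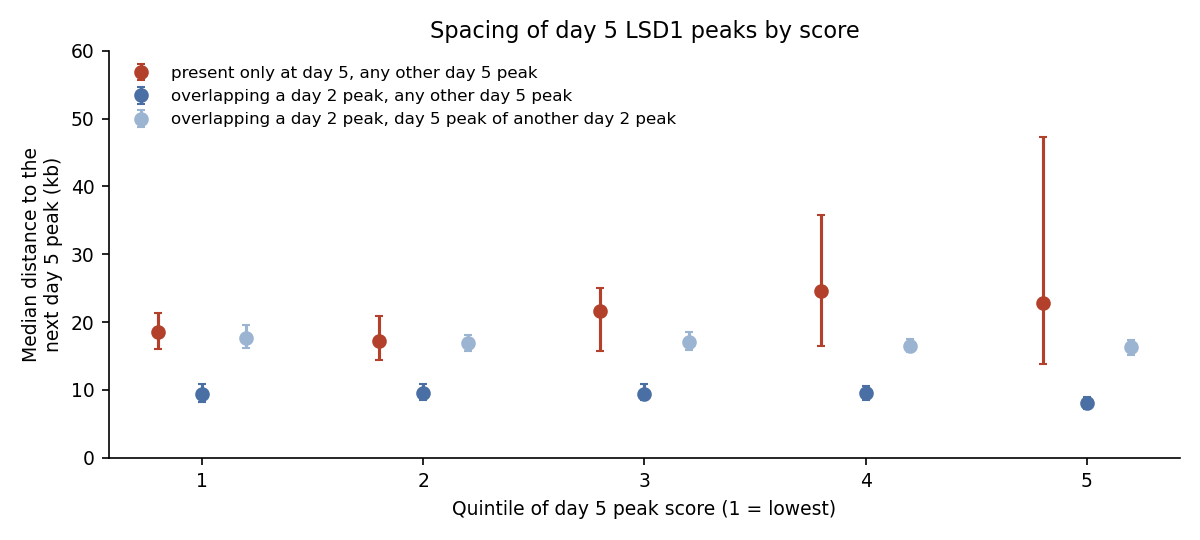
Median distance in kb (vertical axis) to the next day 5 LSD1 peak by quintile of the day 5 score (horizontal axis), for peaks present only at day 5 (red), shared peaks with any other day 5 peak as neighbour (dark blue) and shared peaks with day 5 peaks of another day 2 peak as neighbour (light blue); error bars are 95% intervals of the median. Over all peaks the medians are 18.8, 9.11 and 16.8 kb, and the red median is above the light blue one in each quintile, with overlapping intervals. The light blue measure leaves out neighbours for shared peaks only, so it is not comparable with red.

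Peaks present only at day 5 took a smaller part of the list where day 2 peaks were dense. Day 2 peaks were counted within 50 kb of the midpoint, leaving out those that overlap the day 5 peak itself. Where there was none, 216 of 1178 day 5 peaks were present only at day 5 (18.3%, 16.2 to 20.6). With 1 to 4 it was 14.4% (13.6 to 15.2), with 5 to 9 it was 13.2% (12.4 to 14.1), and with 10 or more it was 11.7% (10.6 to 13). The same order was seen among day 5 peaks below the median score, at 29.3% (25.8 to 33.0), 24.1% (22.7 to 25.5), 21.8% (20.3 to 23.3) and 20.4% (18.4 to 22.6). In these classes, from none to 10 or more, day 2 peaks covered a median of 0.857%, 2.74%, 6.004% and 10.9% of the 100 kb around a day 5 peak. This coverage includes the day 2 peak that a shared peak overlaps, which the classes leave out, and the part of this coverage in the trend was not tested.

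In windows of 100 kb, the 2390 peaks occupied 2124 windows, of which 1885 held 1, 214 held 2, 23 held 3 and 2 held 4. No day 2 peak had its midpoint in 228 of the 2124 windows, which held 236 of the peaks. A window with 4 was on chromosome 11 at 51700001 to 51800000, with 11 day 5 and 11 day 2 peaks in all. The 4 lay between 51759049 and 51764447, with scores from 51.8 to 60.1, and 828 to 3207 bp from a day 2 peak. Of the windows with 3, the first in chromosome order ran from 43200001 to 43300000 on chromosome 1, with 6 day 5 and 8 day 2 peaks in all. The next were on chromosome 2, from 25400001 to 25500000 with 3 day 5 and 8 day 2 peaks and from 60500001 to 60600000 with 5 and 12.

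The other window with 4 was on chromosome 9 at 3000001 to 3100000, where there was no day 2 peak and no other day 5 peak. Its peaks began at 2999991, 3009773, 3027418 and 3032632, were 969, 140, 116 and 147 bp wide and scored 57.4, 60.8, 58.2 and 52.4. The nearest day 2 peak lay 370 to 402 kb away. The first of them had the lowest start of all peaks in either list on these chromosomes, where the first peak otherwise began between 3022651 on chromosome 11 and 8606324 on chromosome 14. Mouse chromosomes have the centromere, with its satellite repeats, at the low end of the coordinates. Whether reads can be placed uniquely there was not analysed.

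Across chromosomes the share varied little. It lay between 12.6% on chromosome 3 (10.6 to 14.9) and 16.3% on chromosome 18 (13.3 to 19.7) on all autosomes but chromosome 15, and each of these 18 intervals held the overall 13.8%. On chromosome 15, 131 of 1228 day 5 peaks were present only at day 5 (10.7%, 9.06 to 12.5), and the interval lay below 13.8%. The day 5 peaks of chromosome 15 also had the highest median score of the 19 autosomes, 81.0 against 72.3 over all of them. Among day 5 peaks below the median score the share on chromosome 15 was again the lowest of the 19, at 19.9% (16.7 to 23.6). The 23.1% over all autosomes lies inside its interval. By the same measure chromosome 18 was the highest, at 28.3% (23.1 to 34.1), with an interval just above the overall share. Chromosome 15 was picked as the lowest of 19, and its interval does not allow for that choice. The same holds for chromosome 18 as the highest.

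**Figure D5:**
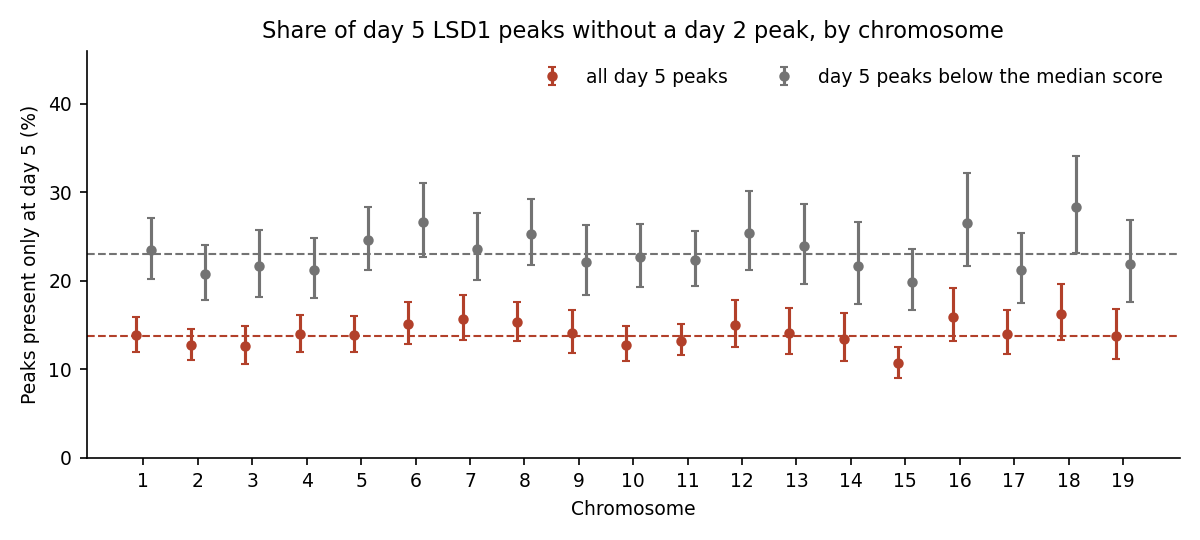
Percentage of day 5 LSD1 peaks with no overlapping day 2 peak (vertical axis) on each autosome (horizontal axis), for all day 5 peaks (red) and for those below the median score of the list (grey); points are shares, error bars are Wilson 95% intervals, and dashed lines mark 13.8% and 23.1% over all autosomes. Chromosome 15 is the lowest in red, at 10.7%, and the only one whose red interval does not reach the red line.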

How the data were processed

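LSD1 ChIP-seq was compared between C2C12 cells at day 5 and at day 2, with 1 library per group, grouped by sample title. The authors deposited 1 peak list per LSD1 library. MACS was run in Galaxy to call them, per the file headers; its version, cutoff and use of the inputs are not stated there. Bowtie2, deepTools and mm9 are named in the submitters' processing notes. The peak score was deposited by the authors as the caller gave it, on a scale that is not stated. Positions and widths are the other deposited values, in bp.

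Starts are printed counted from 1. Overlap meant at least 1 bp. Distances ran between nearest edges, with 0 for abutting peaks. Wilson 95% intervals were computed for shares and order-statistic intervals for medians, for counting error only. Peaks named singly were the 10 of highest score, the 10 widest, the 10 farthest from and the 5 nearest to a day 2 peak, the 5 fullest windows of 100 kb (ties in chromosome order) and the 5 shared peaks of smallest overlap; pairs were picked after their values were seen. The day 5 only peaks and all measures were chosen with earlier results of these data known. Overlap counting was tested on 14475 simulated peaks, and the overlap was right for 100.0% of them. Distance was tested on the 2514 of these planted without overlap, all placed after a day 2 peak. Both were also checked by direct comparison of all pairs for the 589 day 5 peaks of chromosome 19. Genes, motifs and sequences were not analysed, because the reference tables used here belong to another assembly. Values were computed in Python 3.11.15 with SciPy 1.17.1, pandas 2.3.3 and NumPy 2.4.6, and drawn with Matplotlib 3.10.9.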

Additional observations from a re-analysis of the deposited data

Results flagged for a closer look

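Outside chromosomes 1 to 19, which are not covered above, 43 of 131 day 5 peaks overlapped no day 2 peak (32.8%, Wilson 95% interval 25.4 to 41.3), against 13.8% on the autosomes. Chromosome X held 36 of them among 118 day 5 peaks (30.5%, 22.9 to 39.3), with a median score of 56.3, a median width of 240 bp and a median gap of 17.4 kb to the nearest day 2 peak. Unplaced sequences held the other 7 among 13 day 5 peaks, with scores from 52.1 to 233.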

How the results depend on the processing

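Of 38 recomputations of 7 values under other settings, 18 stayed within the interval of the value (the number of peaks within 1.5 times) and 20 moved; no value could change sign. With day 5 peaks at or above the median score, 392 of the 2390 peaks remained. Below that score 23.1% of day 5 peaks were present only at day 5, against 13.8% over the list. The 392 had a median score of 82.95 and width of 324 bp. Of them, 18.1% were within 1 kb of a day 2 peak and 79.3% had a nearest day 2 peak that had no day 5 peak. With day 2 peaks at or above their median score, 4905 of the 17315 day 5 peaks were present only at day 5. The 4905 had a median score of 59.5, width of 259 bp and distance of 12917 bp. Of them, 12.3% were within 1 kb, 55.6% beyond 10 kb, and 48.7% had such a nearest peak. Requiring overlap of at least 50% of the day 5 peak gave 2582 peaks, a median distance of 4522.5 bp, 27.3% within 1 kb and 35.0% beyond 10 kb. Merging day 5 peaks less than 1 kb apart gave 2207 peaks, a median distance of 6510 bp, 15.9% within 1 kb, 40.6% beyond 10 kb and 72.4% with such a nearest peak. Between midpoints, 13.6% were within 1 kb. Fewer peaks in a list give fewer overlaps by construction. Keeping day 5 peaks of higher score raises their median score by construction. Requiring 50% overlap adds only shared peaks, which touch a day 2 peak, so the share within 1 kb rises and that beyond 10 kb falls. Midpoints lie farther apart than edges. For the other moves the cause was not tested. The share over all day 2 peaks is not given under these settings, so 79.3%, 48.7% and 72.4% have no background beside them. Adding chromosome X and unplaced sequences moved none of the 7 values. Added after the data were seen, leaving out neighbours in the same day 2 peak moved the spacing of shared day 5 peaks from 9105 to 16766 bp. No paired analysis was possible because each group had 1 library, and no replicate could be left out. The number rests on low scores, since 60.5% of the peaks scored below 60 in a list that starts at 50, and the depth behind them is unknown.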
